A study of Mus musculus with 47 samples.

Results

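The comparison of C5 with B6 control organoids rests on 4 RNA-seq libraries of the 47 in the series, chosen by their labels as the untreated intestinal organoids of each strain. B6 control organoids (replicates 1 and 2) come from C57BL/6 mice. C5 control organoids (replicates 3 and 4) come from the consomic strain CSS C57BL/6 chr5 PWD, in which chromosome 5 is that of PWD/Ph and the other chromosomes are C57BL/6. Both strains carry the APC min genotype, an adenoma-inducing allele of the Wnt pathway tumour suppressor Apc, and both are labelled 15 to 19 weeks of age and as control treatment. Each control library has a counterpart of the same number treated with 5-aza-cytidine (AZA), a cytidine analogue that traps DNA methyltransferases. The series also holds wild-type mucosa, uninvolved mucosa of Min mice (Min mucosa) and adenoma of B6 and C5, with 3 libraries each, and tissues of other crosses with PWD. The labels do not say whether an organoid line grew from adenoma or from uninvolved tissue, whether 2 replicates are separate animals or cultures, or which sex the mice had. The question posed by this design is which genes differ in epithelium grown in culture when only chromosome 5 is exchanged.

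Intestinal organoids are epithelial cultures that grow from crypt stem cells in a matrix with niche growth factors, and they hold stem, Paneth, goblet, enteroendocrine, tuft and enterocyte cells without the stroma and blood cells of the gut wall. A consomic strain carries a whole chromosome of a donor strain on the genome of a host strain. A gene of the exchanged chromosome can differ through its own alleles, while a gene of any other chromosome should have host alleles on both sides. The alleles were not checked in the reads here. Reads of both strains were aligned to a reference genome of the host strain. Reads from donor alleles of the exchanged chromosome may therefore have been lost or placed differently. The part of such alignment effects in the rises and falls called on that chromosome was not tested.

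Gene counts were 6788600 and 6650838 in the B6 libraries and 5801111 and 8373764 in the C5 libraries. The C5 pair differed more between its members than the B6 pair did, with a chi-square per degree of freedom over genes of 23.3 against 9.22, and no library was a copy of another. Genes of chromosome 5 held 5.82 and 5.89% of gene counts in B6 and 5.73 and 5.81% in C5. The 10 epithelial markers, Epcam, Cdh1 and Krt8 among them, summed to between 5861 and 6081 CPM (normalised read counts scaled to a common library size) in the 4 libraries. The ribosomal precursor Rn45s took 1.25% of gene counts in C5 replicate 3 and 0.760 to 0.789% in the other 3.

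Few genes differed between the strains in culture, and most of those that did lie on the exchanged chromosome. Of 13395 tested genes, 28 were called at an adjusted p under 0.05 (edgeR's quasi-likelihood test with Benjamini-Hochberg adjustment), which is 0.209% of genes. In C5, 17 were higher (0.127%) and 11 were lower (0.0821%). Chromosome 5 held 19 of the 28, or 2.21% of its 861 tested genes, with 11 higher and 8 lower in C5. The other chromosomes held 9, or 0.0718% of 12534 genes, with 6 higher and 3 lower. Every called gene differed by more than 2-fold and its 2 strains did not overlap, but the strains also did not overlap in 36.2% of all tested genes. At an unadjusted p under 0.05 there were 767 genes, of which 151 lie on chromosome 5. The median size of the fitted log2 change was 0.39 on chromosome 5 and 0.26 elsewhere, and the median signed change over all genes was 0.04. Fitted log2 changes are C5 minus B6 throughout, with a prior count of 2 and their standard error (SE). The SE was taken as the fitted change over the square root of its F statistic, and is not dependable for small changes.

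**Figure D1:**
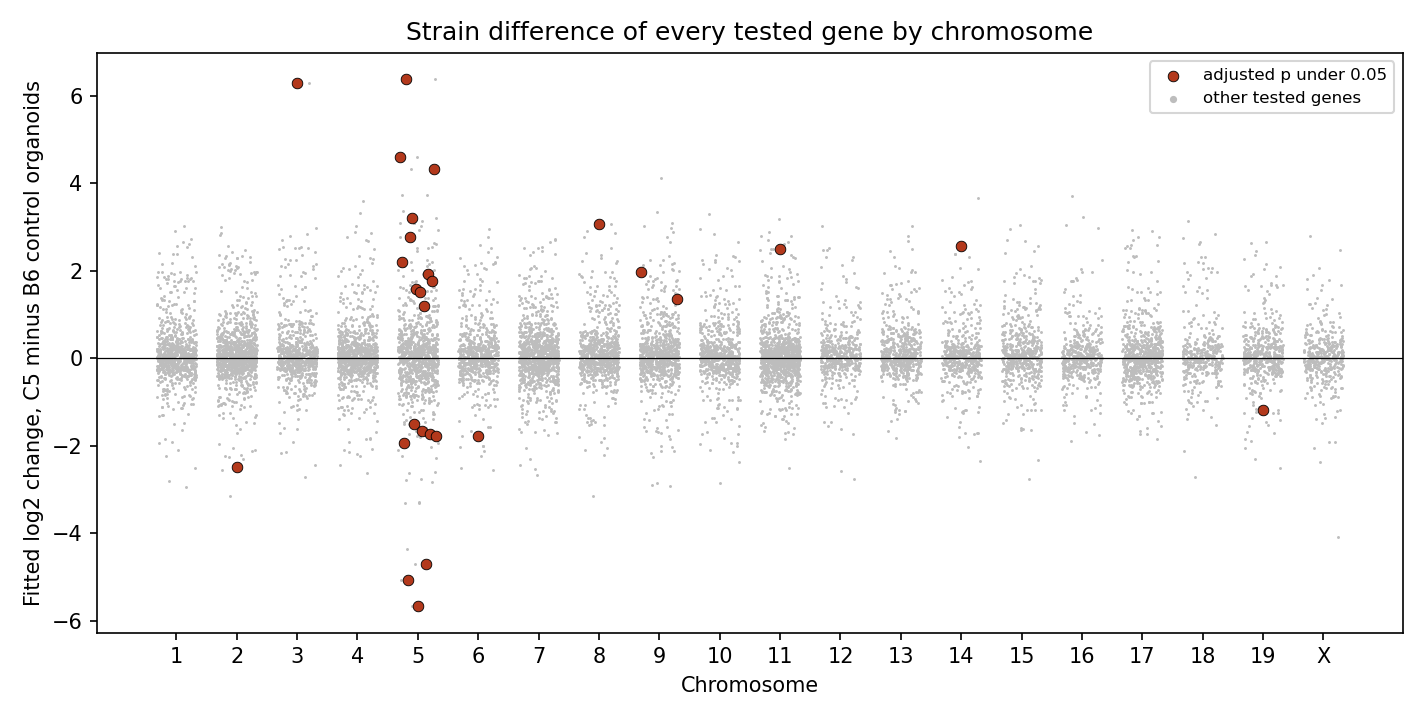
Fitted log2 change of C5 minus B6 control organoids for the tested genes of chromosomes 1 to 19 and X, 1 point per gene spread sideways within its chromosome, with the 28 called genes as large red points. Chromosome 5 holds 19 of the red points, on both sides of 0, and no other chromosome holds more than 2.

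The count of 28 depended on single libraries. It was 27 without B6 replicate 1, 22 without B6 replicate 2, 139 without C5 replicate 3 and 45 without C5 replicate 4. Of the 28 genes, 14 were called whichever library was left out, namely 11 of chromosome 5 (Rpl21, Arpc1b, Prom1, 1700023E05Rik, Steap1, Steap2, Ugt2b36, Ugt2a3, Sult1d1, Cacna2d1 and Pkd2) and 3 of other chromosomes (Bglap3, Ide and Gm6329).

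The deepest falls on chromosome 5 included a pair of adjacent Steap genes. Steap1 (chromosome 5, 5736322 to 5749317, GRCm38) and Steap2 (5664829 to 5694649) are members of a family of membrane proteins, of which Steap2 reduces ferric iron and cupric copper. Steap2 stood at 75.6 and 90.3 CPM in B6 and at 3.54 and 1.02 CPM in C5. The C5 libraries were low throughout and lay far below the lower B6 library. The log2 change of Steap2 was -5.08 ± 0.45 (SE, adjusted p = 2.54e-05 by edgeR). Steap1 stood at 14.0 and 21.8 CPM in B6 and at 0.168 and 0.564 CPM in C5. Again both C5 libraries were near 0, and the change was -4.71 ± 0.70 (adjusted p = 0.00598 by edgeR). Of 5 other tested genes within 500 kb of Steap2, Steap1 was the only called one.

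The 250 bases before the annotated starts of the pair are shown because the genes are adjacent, fell together and have unlike upstream sequence. They are reference C57BL/6 sequences from RefSeq on GRCm38, both on the minus strand, at chr5:5749318-5749567 for Steap1 and chr5:5694569-5694818 for the first of 3 listed Steap2 starts. Capitals mark CpG, the dinucleotide that DNA methyltransferases modify.
Steap1: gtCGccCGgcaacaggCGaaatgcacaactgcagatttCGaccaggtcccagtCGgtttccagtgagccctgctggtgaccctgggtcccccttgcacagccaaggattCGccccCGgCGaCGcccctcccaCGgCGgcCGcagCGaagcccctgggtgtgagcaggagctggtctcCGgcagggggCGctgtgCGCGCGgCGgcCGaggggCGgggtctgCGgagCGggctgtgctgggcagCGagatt
Steap2: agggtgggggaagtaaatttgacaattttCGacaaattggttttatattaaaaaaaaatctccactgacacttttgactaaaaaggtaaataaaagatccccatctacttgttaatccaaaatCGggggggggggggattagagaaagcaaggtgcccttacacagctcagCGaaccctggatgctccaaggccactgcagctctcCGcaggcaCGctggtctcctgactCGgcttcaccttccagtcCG
The Steap1 window holds 24 CpG and the Steap2 window 7, against a median of 6 over 27025 genes with such a window. The other Steap2 starts hold up to 33. The PWD alleles were not analysed here.

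A list of 24 genes mixed iron handling with hypoxia response, and 22 of them were tested, so its summary values do not describe iron handling alone. Steap1 and Steap2 were its 2 called members, both lower in C5 and both on chromosome 5. Calls took 0.209% of all tested genes and 2.21% of those of chromosome 5. A positive change was found in 4 of 22 members and in 54.3% of all tested genes. The median change over the list was -0.39 against 0.04 over all genes. Tfrc, the transferrin receptor, was at 1360 and 1440 CPM in B6 and 1543 and 1119 CPM in C5. Cybrd1, a duodenal ferric reductase, was at 796 and 1386 CPM in B6 and 922 and 341 CPM in C5. For both genes the strains overlapped, and C5 replicate 4 was the lowest library of the 4. The summed level of the list was 6366 and 7402 CPM in B6 and 6825 and 4206 CPM in C5. The list's median was -0.06 without C5 replicate 4 and -0.92 without C5 replicate 3.

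Prom1 and Cd38, which are neighbours, were both lower in C5. Prom1 (chromosome 5, 43993621 to 44102047) encodes prominin 1, a membrane protein used as a marker of crypt stem and progenitor cells. Its level was 613 and 583 CPM in B6 and 150 and 161 CPM in C5. Each pair was tight and the 2 pairs were far apart, with a change of -1.94 ± 0.17 (adjusted p = 2.54e-05 by edgeR). Cd38 (43868809 to 43912374) encodes an ectoenzyme that consumes NAD. It stood at 100 and 120 CPM in B6 and at 31.8 and 37.3 CPM in C5, without overlap. The change of Cd38 was -1.66 ± 0.24 (adjusted p = 0.00424 by edgeR), and it lost the call without B6 replicate 2 (-1.51, adjusted p = 0.0639).

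The cluster of Ugt2 and Sult1 genes moved in both directions. Ugt2 enzymes attach glucuronic acid to steroids, bile acids and drugs, and Sult1 enzymes attach sulphate, which makes these compounds soluble for excretion. Of 13 listed genes of the 2 clusters, 9 were tested, 3 rose in C5, 1 fell and 5 were not called. Calls took 0.209% of all tested genes and 2.21% of those of chromosome 5. The 3 called risers were the only members with a positive change. The median change over the list was -0.44 against 0.04 over all genes, and its lowest change was -3.30, in a member that was not called. Ugt2b36 (chromosome 5, 87065927 to 87092555) stood at 12.6 and 17.3 CPM in B6 and at 89.9 and 117 CPM in C5. Both C5 libraries lay well above both B6 libraries, and the change was 2.77 ± 0.26 (adjusted p = 4.47e-05 by edgeR). Ugt2a3 (87324972 to 87337195) stood at 116 and 96.9 CPM in B6 and at 331 and 311 CPM in C5, a change of 1.59 ± 0.21 (adjusted p = 0.00201 by edgeR). The C5 values were close to each other and above both B6 values. Ugt2b5 (87124946 to 87140340) stood at 18.5 and 14.5 CPM in B6 and at 66.9 and 61.1 CPM in C5. Its change was 1.93 ± 0.29 (adjusted p = 0.00662 by edgeR), with the call lost without B6 replicate 2 (1.78, adjusted p = 0.0798).

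Sult1d1 (chromosome 5, 87554650 to 87569006), a sulphotransferase of the same stretch, went the other way. It stood at 332 and 353 CPM in B6 and at 132 and 109 CPM in C5, so that C5 was lower in both libraries. The change of Sult1d1 was -1.51 ± 0.18 (adjusted p = 0.000963 by edgeR). Ugt2b34, the member with the highest counts, stood at 1958 and 2210 CPM in B6 and at 1725 and 1350 CPM in C5, a change of -0.44 ± 0.15 that did not pass (adjusted p = 0.687 by edgeR). Ugt2b35 overlapped between the strains, with 254 and 283 CPM in B6 and 278 and 239 CPM in C5. Summed over the list, levels were 2901 and 3159 CPM in B6 and 2797 and 2249 CPM in C5. Ugt2b genes are close paralogs, so the counting may have split or lost reads they share.

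Upstream sequences of Ugt2b36 and Ugt2b5 are shown because these paralogs rose together. They are reference sequences from RefSeq on GRCm38, minus strand, at chr5:87092556-87092805 and chr5:87140341-87140590. Capitals mark the longest run of bases that the 2 windows share.
Ugt2b36: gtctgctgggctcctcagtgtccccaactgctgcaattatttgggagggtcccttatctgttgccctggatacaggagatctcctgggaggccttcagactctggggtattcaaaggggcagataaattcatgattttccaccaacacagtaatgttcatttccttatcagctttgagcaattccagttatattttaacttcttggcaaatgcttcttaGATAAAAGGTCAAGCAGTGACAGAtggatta
Ugt2b5: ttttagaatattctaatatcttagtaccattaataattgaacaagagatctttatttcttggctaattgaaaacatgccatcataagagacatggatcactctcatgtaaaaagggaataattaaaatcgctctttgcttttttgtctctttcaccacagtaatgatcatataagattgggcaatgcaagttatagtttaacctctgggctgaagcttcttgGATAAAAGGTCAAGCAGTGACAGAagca
The shared run is 24 bases long and ends 7 bases before the start of Ugt2b36 and 4 bases before that of Ugt2b5. On either strand it is held by 3 of the 27025 windows (0.0111%), the other being that of Ugt2b37. Ugt2b37 was not among the called genes, and the window of Ugt2a3, which also rose, does not hold the run. A link between the run and the rise was not tested. Aligned over 226 positions, the windows of Ugt2b36 and Ugt2b5 have 73.0% of bases in common. They hold 0 and 1 CpG, and 19.4% of all windows hold at most 1.

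Pkd2 had the largest fall among the called genes, and its neighbour Hsd17b11 was higher. Pkd2 (chromosome 5, 104453982 to 104505819) encodes polycystin 2, a cation channel of primary cilia and endoplasmic reticulum. It stood at 18.2 and 12.8 CPM in B6, or 214 reads in all, and had no read in either C5 library. That is at least 76.5-fold lower in C5, computed against a floor of 3 counts over the C5 pair, and the fitted change was -5.67 ± 0.73 (adjusted p = 0.00256 by edgeR). Hsd17b11 (103989765 to 104021796) encodes a lipid droplet dehydrogenase of the hydroxysteroid family. It stood at 89.5 and 85.2 CPM in B6 and at 223 and 177 CPM in C5, without overlap. The change of Hsd17b11 was 1.19 ± 0.17 (adjusted p = 0.00427 by edgeR), and it lost the call without B6 replicate 2 (1.17, adjusted p = 0.0798).

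Commd8 and Atp10d, adjacent genes, were both higher in C5. Commd8 (chromosome 5, 72156576 to 72168189) encodes a subunit of a complex that sorts endosomal cargo. It stood at 44.7 and 53.7 CPM in B6 and at 152 and 129 CPM in C5, with the C5 pair well above. The change of Commd8 was 1.51 ± 0.21 (adjusted p = 0.00335 by edgeR), which narrowly failed without B6 replicate 1 (1.39, adjusted p = 0.0536). Atp10d (72203329 to 72298771) belongs to a family of lipid-flipping ATPases, and RefSeq lists it as a transcribed pseudogene in the C57BL/6 reference. It had 2 reads over the B6 pair and 142 over the C5 pair, a ratio of 66.2 in reads scaled to depth (95% counting interval 18 to 552). In CPM these were 0 and 0.291 in B6 and 4.55 and 13.0 in C5, so that the C5 libraries themselves were unequal. The change of Atp10d was 4.33 ± 0.82 (adjusted p = 0.0471 by edgeR) and lost its call without B6 replicate 1 (3.92, adjusted p = 0.211) and without C5 replicate 4 (3.37, adjusted p = 0.0688). It was also not called when only the 4 control libraries were fitted (4.41, adjusted p = 0.121).

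Other genes of chromosome 5 stood without a called neighbour within 500 kb. In that span Arpc1b had 14 tested neighbours and 1700023E05Rik had 12, while Cacna2d1 had no tested neighbour at all. Arpc1b (145114256 to 145128186), a subunit of the Arp2/3 complex that nucleates branched actin, stood at 88.6 and 97.5 CPM in B6 and at 486 and 370 CPM in C5. Both C5 libraries were far higher, and the change was 2.20 ± 0.18 (adjusted p = 1.53e-05 by edgeR). Cacna2d1 (15934264 to 16374511), an auxiliary subunit of voltage-gated calcium channels, stood at 7.51 and 9.75 CPM in B6 and at 58.6 and 105 CPM in C5. The C5 libraries differed from each other but both exceeded B6, with a change of 3.20 ± 0.32 (adjusted p = 0.000119 by edgeR). 1700023E05Rik (77016023 to 77061541), listed by RefSeq as Thegl, lies outside the naming rule as a clone name and is named here after its values were seen. It stood at 0.866 and 0 CPM in B6 and at 48.7 and 73.8 CPM in C5, a change of 6.37 ± 0.55 (adjusted p = 2.54e-05 by edgeR).

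Rpl21, Hmgb1 and Tmed2 were called with housekeeping roles. Rpl21 and Hmgb1 have near-identical copies elsewhere in the genome, and their counts are uncertain because the counting could split or drop reads between copies. Rpl21 (146832890 to 146837032), a protein of the large ribosomal subunit, stood at 9.24 and 3.49 CPM in B6 and at 127 and 194 CPM in C5. The strains were far apart, at 4.59 ± 0.36 (adjusted p = 1.50e-05 by edgeR). No gene was called among 54 other tested ribosomal protein genes, whose median change was 0.18. Hmgb1 (149046702 to 149053057), a chromatin protein, stood at 47.8 and 53.7 CPM in B6 and at 17.0 and 13.0 CPM in C5. Its change of -1.74 ± 0.31 (adjusted p = 0.0291 by edgeR) kept its call only when C5 replicate 3 was the library left out, and otherwise lay at -1.82 (adjusted p = 0.136) without B6 replicate 1, -1.65 (adjusted p = 0.285) without B6 replicate 2 and -1.55 (adjusted p = 0.156) without C5 replicate 4. Tmed2 (124540791 to 124550503), a cargo receptor of the early secretory pathway, stood at 14.9 and 17.9 CPM in B6 and at 60.5 and 52.5 CPM in C5. The change of Tmed2 was 1.77 ± 0.32 (adjusted p = 0.0296 by edgeR), which failed without either B6 library (adjusted p = 0.264 without replicate 1 and 0.114 without replicate 2).

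Fam185a (chromosome 5, 21424861 to 21488271) was the last chromosome 5 gene past the threshold. It stood at 47.2 and 48.6 CPM in B6 and at 14.0 and 13.4 CPM in C5. Both pairs were tight and did not overlap, and the change was -1.78 ± 0.34 (adjusted p = 0.0471 by edgeR). Without B6 replicate 1, B6 replicate 2 or C5 replicate 4 the adjusted p was 0.207, 0.273 and 0.117.

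**Figure D2:**
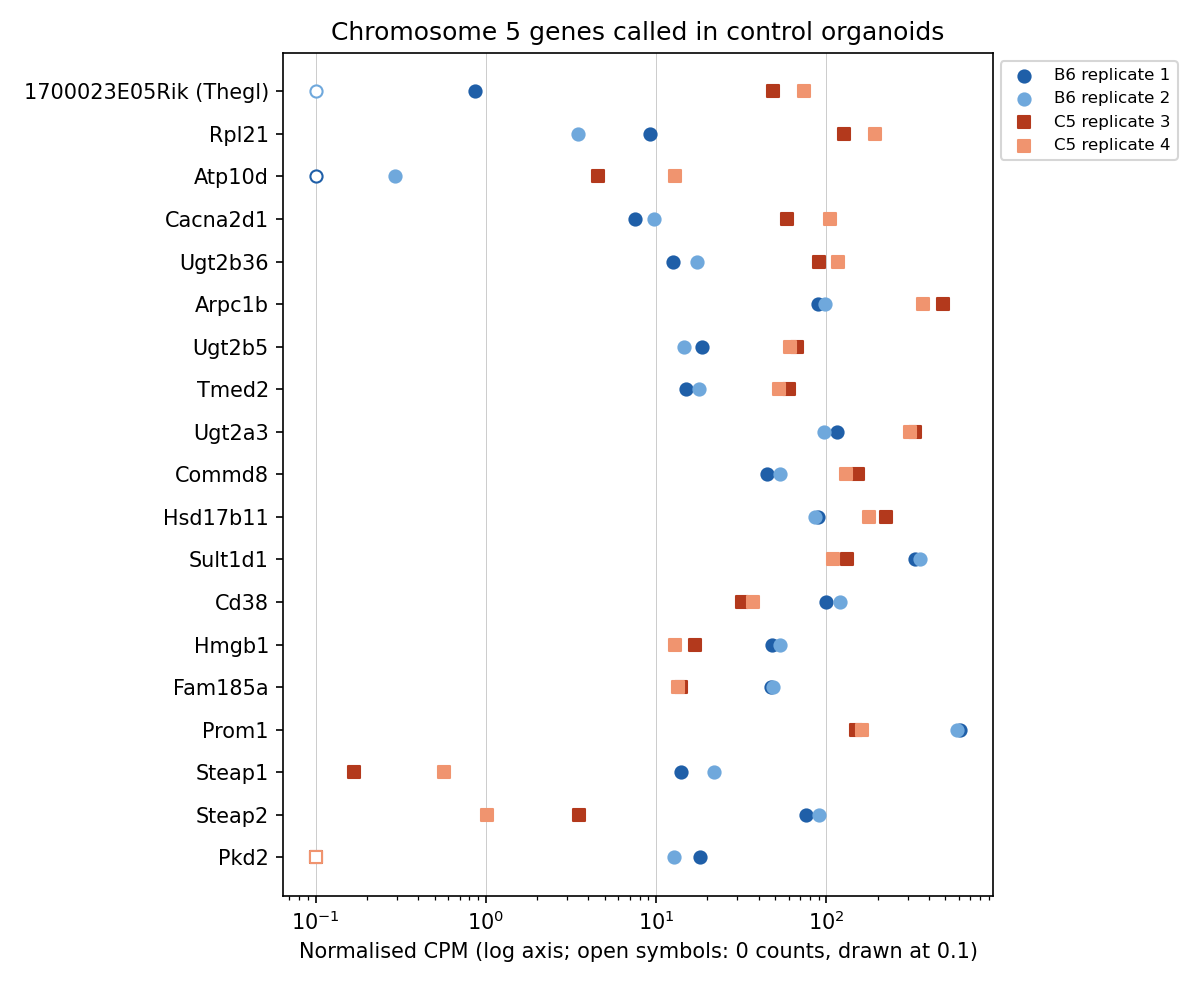
Normalised CPM on a log axis of the 19 called genes of chromosome 5, ordered by fitted change, with 1 symbol per control library (circles B6, squares C5). Open symbols are libraries with 0 counts, drawn at 0.1, and within each gene the squares and circles lie on opposite sides, with Pkd2 at 0 in both C5 libraries.

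Along chromosome 5 the called genes were spread from Steap2 to Hmgb1. In windows of 10 Mb, the window from 80 to 90 Mb that holds the Ugt2 and Sult1 genes had 4 called of 22 tested genes. The window from 70 to 80 Mb had 3 of 38, and that from 140 to 150 Mb had 3 of 94. No gene was called between 90 and 100 Mb, where 59.1% of 44 tested genes did not overlap between strains, or between 110 and 120 Mb, where 54.4% of 90 did not. Over all of chromosome 5 that share was 48.5%. The windows at 30 to 40, 50 to 60, 60 to 70, 130 to 140 and 150 to 160 Mb also had no called gene, with shares of 28.6 to 63.6%.

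On the other chromosomes, where both strains have C57BL/6 alleles by their labels, Bglap3 stood out. Bglap3 (chromosome 3, 88368616 to 88372741), a gene of the osteocalcin family, had 2 reads over the B6 pair and 496 over the C5 pair. In CPM these were 0.144 and 0.145 in B6 and 45.8 and 25.3 in C5. The ratio in reads scaled to depth was 231 (95% counting interval 63.7 to 1916), and the change was 6.29 ± 0.41 (adjusted p = 2.62e-06 by edgeR), the smallest adjusted p of all genes. Bglap and Bglap2, near-identical neighbours, had no reads in the 4 control libraries, and the counting may have assigned reads shared with them to none.

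Ide (chromosome 19, 37268743 to 37334544), the insulin-degrading enzyme, was the tightest of these differences. It stood at 247 and 251 CPM in B6 and at 113 and 106 CPM in C5, a change of -1.18 ± 0.16 (adjusted p = 0.00315 by edgeR). Gm6329 (chromosome 8, 45160494 to 45165145), a long noncoding RNA in RefSeq named after its values were seen, stood at 3.90 and 1.89 CPM in B6 and at 30.5 and 22.4 CPM in C5. The change of Gm6329 was 3.06 ± 0.42 (adjusted p = 0.00336 by edgeR). Neither gene showed any overlap of the strains.

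Map4 and Lars2, both on chromosome 9, were higher in C5. Map4 (109929841 to 110083954), a protein that binds microtubules, stood at 15.6 and 21.4 CPM in B6 and at 73.3 and 72.2 CPM in C5. The change of Map4 was 1.96 ± 0.29 (adjusted p = 0.00568 by edgeR), and without B6 replicate 1 it was 1.75 (adjusted p = 0.0677). Lars2 (123366927 to 123462675), the mitochondrial leucyl-tRNA synthetase, stood at 76.4 and 106 CPM in B6 and at 257 and 208 CPM in C5. Its change of 1.34 ± 0.22 (adjusted p = 0.0163 by edgeR) fell short without B6 replicate 1 (1.12, adjusted p = 0.207). Lars2 was high and variable in tissue, from 2990 to 51610 CPM over the B6 libraries, far above its organoid levels. Whether all reads counted for it are Lars2 transcript was not tested, so its counts are uncertain.

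Ube2l6 and Podxl were lower in C5. Ube2l6 (chromosome 2, 84798828 to 84810003), the conjugating enzyme for the ubiquitin-like interferon product Isg15, stood at 9.38 and 8.58 CPM in B6 and at 2.02 and 0.790 CPM in C5. The change was -2.49 ± 0.42 (adjusted p = 0.0170 by edgeR), with adjusted p = 0.117 without C5 replicate 4 and 0.434 when only the 4 control libraries were fitted. No member was called among 31 tested interferon response genes. Their median change was 0, with medians of -0.35 to 0.44 when 1 control library was left out. Podxl (chromosome 6, 31519493 to 31563937), an apical sialomucin, stood at 101 and 90.8 CPM in B6 and at 38.2 and 18.3 CPM in C5. The change of Podxl was -1.77 ± 0.31 (adjusted p = 0.0293 by edgeR), with adjusted p = 0.0677 without B6 replicate 1 and 0.0617 without C5 replicate 4.

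Slc47a1 (chromosome 11, 61343400 to 61378842), an exporter of organic cations, was close to the limit of detection. It had 1 read over the B6 pair and 27 over the C5 pair, a ratio of 25.2 in reads scaled to depth (95% counting interval 4.15 to 1031). The change was 2.49 ± 0.43 (adjusted p = 0.0256 by edgeR), and without B6 replicate 2 it was 2.24 (adjusted p = 0.271). The call was also lost by DESeq2 (4.65, adjusted p = 0.195) and with only the 4 control libraries in edgeR (2.59, adjusted p = 0.644).

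Olfm4 (chromosome 14, 80000302 to 80023141), a secreted glycoprotein that marks crypt stem cells in human gut and cycling crypt base cells in mouse, was higher in C5 to a varying degree. It stood at 49.4 and 30.7 CPM in B6, at 112 CPM in C5 replicate 3 and at 362 CPM in C5 replicate 4. The groups did not overlap, but the C5 libraries lay further apart than the lower of them lay from B6. The change was 2.56 ± 0.48 (adjusted p = 0.0471 by edgeR). It was 1.48 without C5 replicate 4 (adjusted p = 0.0201), 3.17 without C5 replicate 3 (adjusted p = 1.13e-08) and 2.27 without B6 replicate 2 (adjusted p = 0.133), and DESeq2 did not call it (adjusted p = 0.143).

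**Figure D3:**
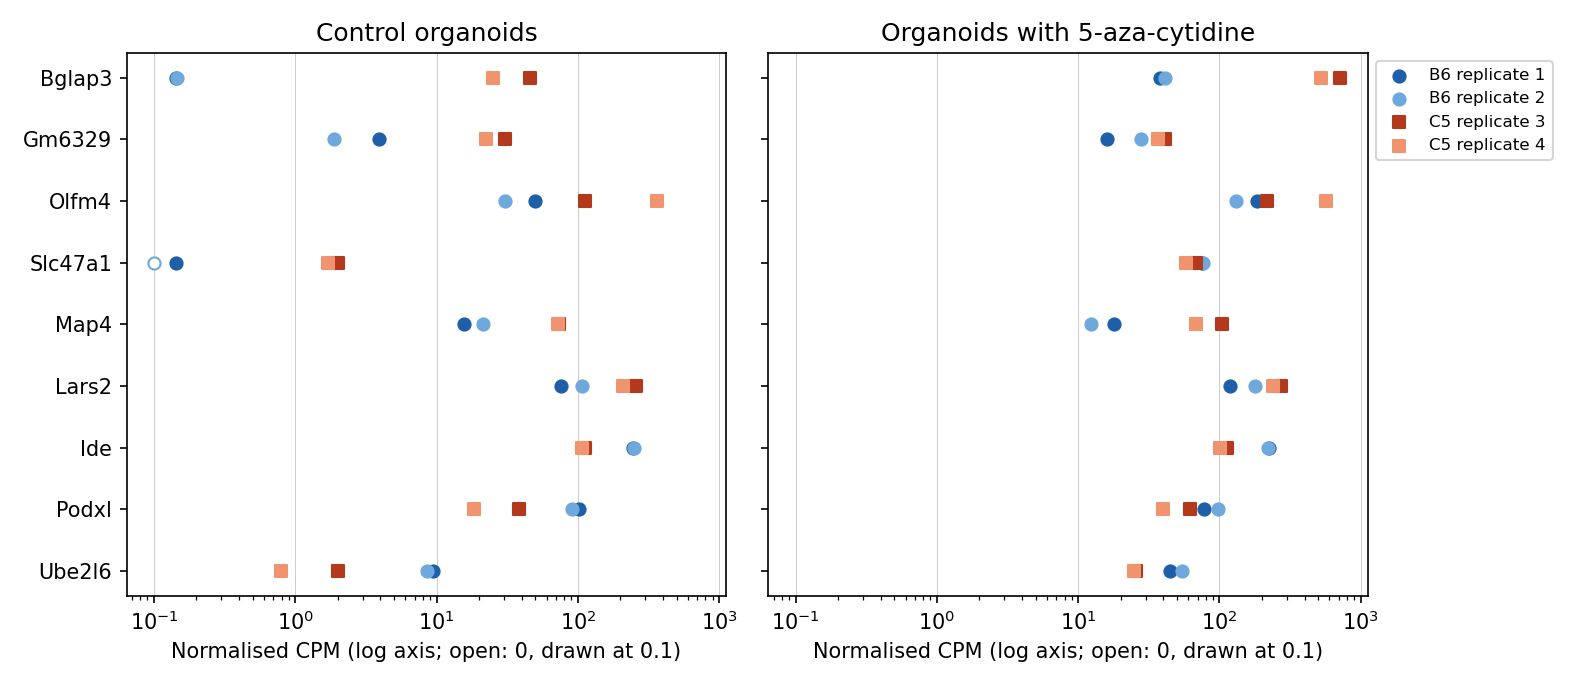
Normalised CPM on a log axis of the 9 called genes outside chromosome 5, control libraries on the left and AZA libraries on the right, with 1 symbol per library (circles B6, squares C5) and open symbols for 0 counts, drawn at 0.1. The strains did not overlap for Bglap3 under AZA either, at 38.0 and 41.5 CPM in B6 against 718 and 525 CPM in C5, a log2 change of 3.96 against 6.29 in control libraries, while the Slc47a1 symbols of both strains lie between 57.8 and 76.0 CPM.

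The AZA libraries give the same strain contrast in other libraries, whose numbers are those of the control libraries. There 18 genes were called (0.134%), 14 of them on chromosome 5 (1.63%) and 4 elsewhere (0.0319%). Of the 28 genes called in control organoids, 16 were called again in the same direction, which is 57.1% of the control calls and 88.9% of the AZA calls, and none was called in the opposite direction. Among the 28, 27 had the same sign. The exception was Slc47a1, at 75.7 and 76.0 CPM in B6 and 68.4 and 57.8 CPM in C5 under AZA. On chromosome 5, 13 of 19 genes were called again, and all 19 had the same sign. Outside it Bglap3, Ide and Map4 were called again.

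For Pkd2 the AZA libraries held 14.4 and 10.4 CPM in B6 and 0.290 and 0 CPM in C5, a change of -4.73 (adjusted p = 0.0177 by edgeR). Arpc1b held 96.8 and 101 CPM in B6 and 545 and 559 CPM in C5, a change of 2.48 (adjusted p = 5.29e-06 by edgeR). In both genes every C5 library again lay on the same side of every B6 library. Steap2 was at 37.8 and 27.5 CPM in B6 and 5.50 and 5.02 CPM in C5, a change of -2.56 (adjusted p = 0.0157 by edgeR). Ugt2b5 overlapped between strains under AZA, with 41.1 and 65.5 CPM in B6 and 79.8 and 54.1 CPM in C5.

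Whether the strain difference itself changed under AZA was tested as an interaction, which uses the control libraries again. No gene passed (0 of 13395 by edgeR and 0 by DESeq2), while 609 had an unadjusted p under 0.05 by edgeR and 601 by DESeq2. For Steap2 the interaction was 2.52 (adjusted p = 0.999 by edgeR), for Bglap3 -2.33 (adjusted p = 0.918) and for Slc47a1 -2.75 (adjusted p = 0.688). Each of these missed the threshold, which does not show that the difference was the same under AZA.

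B6 and C5 tissue gave the contrast in 18 libraries that share none with the organoids. As the mean of wild-type mucosa, Min mucosa and adenoma, 2461 of 13269 genes were called (18.5%), with 291 of 846 on chromosome 5 (34.4%) and 2170 of 12423 elsewhere (17.5%). Taken alone, wild-type mucosa had 216 genes called (1.63%), Min mucosa 120 (0.904%) and adenoma 2476 (18.7%). All 19 organoid calls of chromosome 5 were tested in tissue, and 16 were called there in the same direction, which is 84.2% of the organoid calls and 6.06% of the 264 tissue calls tested in both. Of 8 testable organoid calls of other chromosomes, 4 were called in the same direction, which is 50% of them and 0.202% of 1977 tissue calls. No gene was called in the opposite direction in the mean of the 3 tissues. Prom1, Arpc1b, Cd38 and Map4 were called in this mean but in none of the 3 tissues taken alone. The tissue calls of chromosome 5 had the same sign in control organoids for 94 of 136 genes higher in C5 and for 82 of 128 genes lower in C5. Tissue and organoids were normalised apart, and tissue levels below are from all 39 tissue libraries. Gata4, a transcription factor of proximal gut, varied between tissue libraries, from 1.21 to 78.3 CPM in B6 wild-type mucosa. In Min mucosa it was at 0 to 0.875 CPM in B6 and 2.20 to 74.0 CPM in C5. Ugt2a3, one of the 16, was there at 0 to 1.26 CPM in B6 and 3.54 to 97.0 CPM in C5. The part of gut segment in the tissue calls was not tested.

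**Figure D4:**
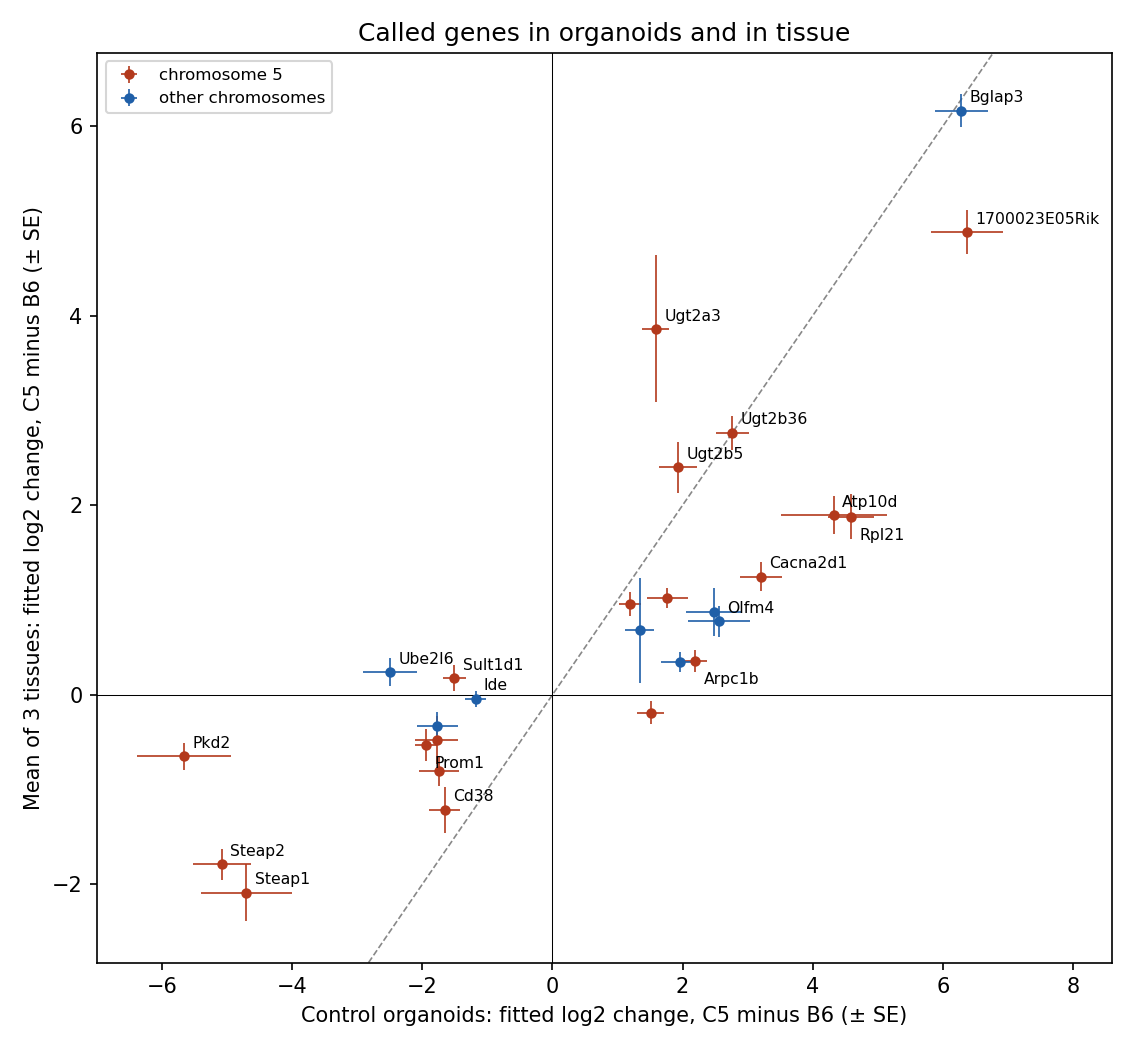
Fitted log2 change of C5 minus B6 in control organoids (horizontal axis) and as the mean of 3 tissues (vertical axis) for the 27 called genes tested in both, with bars of 1 SE and the line of equal change dashed. Bglap3 lies near the line at the top right, while Pkd2, Steap2, Arpc1b, Rpl21 and Cacna2d1 lie closer to 0 in tissue than in organoids. All genes shown were picked by their change in control organoids.

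Of the 28 genes, 10 differed between organoids and tissue in the size of the strain difference, by the interaction in a fit of both (90 of 15030 genes called, 0.599%). These include 7 of chromosome 5, on which 19 of 958 genes were called (1.98%). The 28 were picked by the same control libraries, which favours large gaps, so their share cannot be read against that of all genes. Pkd2 showed the largest such gap, of -4.54 ± 0.43 (adjusted p = 7.63e-06 by edgeR). In tissue Pkd2 was present in C5, with 9.34 to 12.9 CPM in wild-type mucosa, 7.41 to 13.2 CPM in Min mucosa and 9.58 to 12.2 CPM in adenoma, and B6 adenoma held 19.95 to 24.3 CPM. Its tissue change was -0.65 ± 0.14 (adjusted p = 0.00544 by edgeR). The absence of Pkd2 reads was thus measured in C5 organoids and not in C5 tissue.

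Steap2 differed by -3.19 ± 0.44 between organoids and tissue (adjusted p = 0.00105 by edgeR), and was also lower in C5 tissue, by -1.79 ± 0.16. Arpc1b differed by 1.86 ± 0.26 (adjusted p = 0.00105 by edgeR), with a tissue change of 0.36 ± 0.12. Rpl21, Cacna2d1 and Map4 were likewise higher in C5 in both settings and further apart in organoids. Sult1d1 fell in organoids, while as the mean of the tissues its change was 0.17 ± 0.14 and not called. In wild-type mucosa Sult1d1 was at 77.6 to 140 CPM in B6 and 50.3 to 53.3 CPM in C5, and in adenoma at 8.54 to 20.7 CPM in B6 and 42.6 to 55.2 CPM in C5. Those ranges do not overlap, and they lie in opposite order in the 2 tissues. In wild-type mucosa alone, where 1.63% of genes were called, Sult1d1 was lower in C5, as in organoids (-1.17, adjusted p = 0.0255 by edgeR). In adenoma alone, where 18.7% of genes were called, Sult1d1 was higher in C5 (1.65, adjusted p = 0.000319 by edgeR).

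Ide, Commd8 and Ube2l6 were called in organoids and not as the mean of 3 tissues. In tissue Ide overlapped between the strains, at 48.3 to 57.3 CPM in B6 and 41.3 to 49.3 CPM in C5 wild-type mucosa, with a mean change of -0.04 ± 0.09. The gap to organoids was -1.12 ± 0.19 (adjusted p = 0.00681 by edgeR). Commd8 had a tissue change of -0.19 ± 0.12 and Ube2l6 one of 0.24 ± 0.14, each opposite in sign to its organoid change. In adenoma alone Ube2l6 was higher in C5, at 6.19 to 8.17 CPM in B6 and 11.6 to 16.9 CPM in C5 (0.87, adjusted p = 0.0265 by edgeR).

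Bglap3, Ugt2b36 and Ugt2b5 were called in the same direction in both settings. The tissue change of Bglap3 was 6.17 ± 0.17 (adjusted p = 5.38e-14 by edgeR), with 92.3 to 157 CPM in C5 and 1.12 to 1.21 CPM in B6 wild-type mucosa. Mucosa of the B6 by C5 cross held 2.01 to 4.28 CPM, and PWD mucosa had no Bglap3 read in any of 3 libraries. C5 tissue thus stood above both B6 and PWD, and the cross lay nearer to B6. For Ugt2b36 the tissue change was 2.77 ± 0.18 and for Ugt2b5 2.40 ± 0.27. Their gaps to organoids were -0.03 and -0.50 and were not called. With 1 library left out, the gap of Ugt2b36 ran from -0.25 to 0.23 and that of Ugt2b5 from -0.66 to -0.33. In PWD mucosa Ugt2b36 reached 22.2 to 86.8 CPM, against 12.9 to 16.7 CPM in C5 and 2.88 to 5.10 CPM in B6.

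Olfm4 and Prom1 were the only markers of cell types called between the strains. Calls took 0.209% of all tested genes and 2.21% of those of chromosome 5, where Prom1 lies. Among 19 stem cell genes, Olfm4 rose and Prom1 fell, and the median change was 0. Lgr5, the receptor that defines crypt base stem cells, stood at 157 and 187 CPM in B6 and at 130 and 155 CPM in C5, and Smoc2 at 238 and 231 CPM in B6 and 211 and 366 CPM in C5. Neither was called. No member was called among 17 Paneth cell genes (median change 0.37), 16 goblet cell genes (0.09), 21 enteroendocrine genes (-0.07), 9 tuft cell genes (0.17) or 29 enterocyte genes (0.06). The same held for 18 Wnt target genes (-0.14), 24 cell cycle genes (0) and 24 p53 target genes (0.02). With 0.209% of all genes called, lists of such sizes would rarely hold a call, so its absence says little. In bulk RNA, fewer cells of a type and less RNA per cell cannot be told apart.

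The proximal small intestine list had 1 called member of 13, Steap1, which is also in the iron and hypoxia list. Steap1 lies on chromosome 5, where 2.21% of tested genes were called, against 0.209% of all tested genes. No gene was called in the lists for fetal and regenerative epithelium (median -0.40 over 17), distal ileum and colon (0.03 over 13), phase I xenobiotic enzymes (0.21 over 41), glutathione transferases (0.14 over 20), cholesterol synthesis (0.03 over 24), antimicrobial defence (0.47 over 14), the Cxcl cluster of chromosome 5 (-0.49 over 6), germline genes silenced by methylation (0.10 over 12) or imprinted genes (0.26 over 15). No DNA methylation enzyme was called either (median -0.02 over 14), and Dnmt1 stood at 228 and 248 CPM in B6 and 190 and 280 CPM in C5. These medians depended on single libraries: with each control library left out in turn, and over the members tested in each fit, 28 of the 36 lists did not keep one sign. The median ran from -0.51 to 0.07 for fetal and regenerative genes, from 0 to 0.95 for antimicrobial genes, from -0.05 to 0.24 for imprinted genes and from -0.34 to 0.41 for enterocyte genes. For the Cxcl cluster it was 0 to 0.25 over the 13 members tested in those fits. The 91 tested genes without a read in any control library enter the medians with a change of 0.

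Markers of cells outside the epithelium were detected at low summed levels. The leukocyte and fibroblast lists were higher in every library than the tuft cell list, which summed to 17.6 to 24.5 CPM. Summed endothelial markers were at 2.60 and 4.65 CPM in B6 and at 4.72 and 4.29 CPM in C5. Summed leukocyte markers were at 34.4 and 32.7 CPM in B6 and at 43.0 and 46.7 CPM in C5, with 6 of 17 genes of the list (Cd4, Cd8a, Cd79a, Cd79b, Mcpt1 and Mcpt2) at 0 in every library. Fibroblast and smooth muscle markers summed to 103 and 96.9 CPM in B6 and to 97.5 and 54.9 CPM in C5. Enteric nerve and glia markers summed to 9.38 and 16.4 CPM in B6 and to 11.3 and 12.3 CPM in C5.

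C5 replicate 4 stood apart from the other control libraries in the enterocyte and stem cell lists. Its 29 enterocyte genes summed to 12217 CPM, against 22918 CPM in C5 replicate 3 and 25616 and 20274 CPM in B6. Its stem cell genes summed to 4811 CPM, the highest of the 4, against 3316 CPM in C5 replicate 3 and 3575 and 3537 CPM in B6. With C5 replicate 4 as the lone C5 library, 139 genes were called, 101 of them lower in C5, while with C5 replicate 3 alone 45 were called, 10 of them lower. Among genes called in the former case and not with all 4 libraries were the EGF receptor ligand Areg (-1.80, adjusted p = 5.10e-06), the cell cycle inhibitor Cdkn1a (-2.08, adjusted p = 5.97e-06) and the annexin Anxa3 (-2.98, adjusted p = 2.88e-05, all by edgeR with the spread taken from the other groups). Their values with both C5 libraries were -0.84, -1.40 and -1.45 and were not called.

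**Figure D5:**
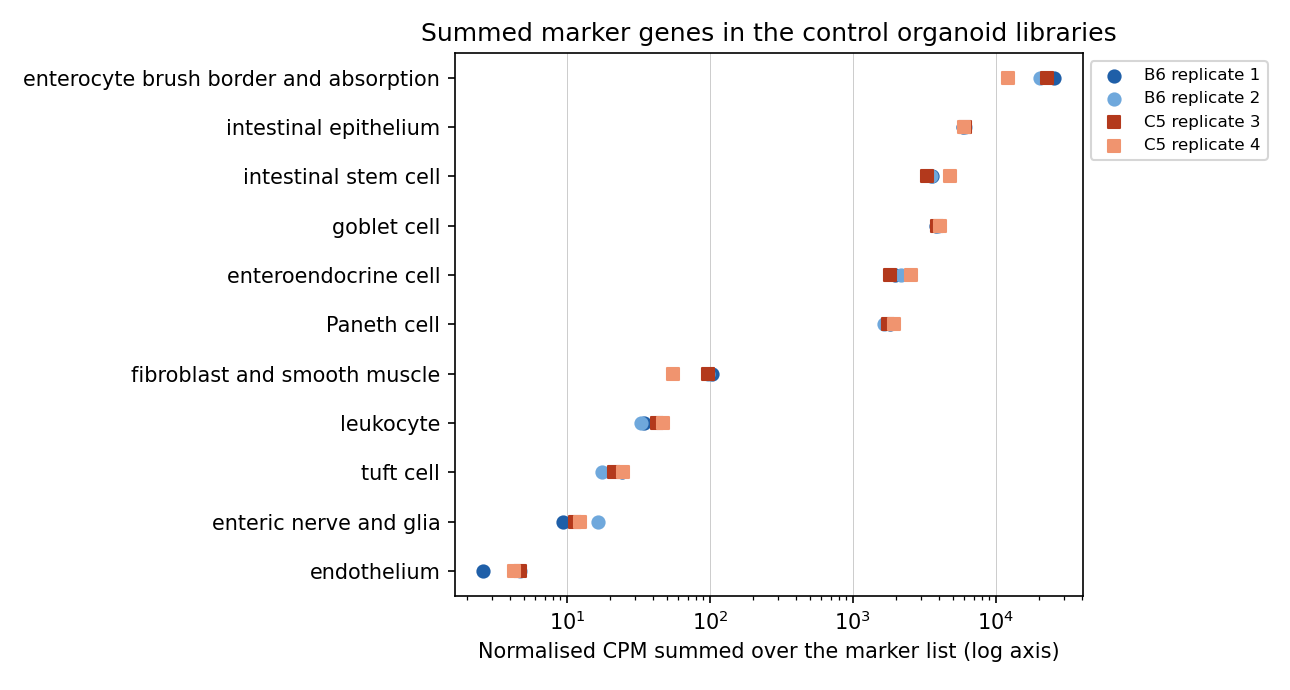
Normalised CPM summed over each marker list, on a log axis, with 1 symbol per control library (circles B6, squares C5). Epithelial lists lie at or above 1662 CPM except the tuft cell list, stromal, leukocyte, nerve and endothelial lists lie at or below 103 CPM, and C5 replicate 4 is the lowest library for enterocyte genes.

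Just below the threshold lay a further set of genes. Coq5, a methyltransferase of ubiquinone synthesis on chromosome 5, stood at 114 and 108 CPM in B6 and at 193 and 216 CPM in C5, a change of 0.89 ± 0.17 (adjusted p = 0.0501 by edgeR). The 9 genes that followed it in order of p were Mbl2, Diablo, Vmn1r32, Cdkn1a, Tmprss15, Abcb1b, Rhbdd2, Fras1 and Ikzf2, with adjusted p up to 0.128. Of these, Diablo, Abcb1b, Rhbdd2 and Fras1 lie on chromosome 5 and were all higher in C5. Just inside the threshold were Olfm4, Atp10d and Fam185a.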

How the data were processed

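RNA was depleted of ribosomal RNA with RiboMinus and sequenced as single reads on a Genome Analyser IIx, per the labels' protocols. The authors deposited raw read counts per gene symbol, made with BWA (aligner), mm10 (genome build) and HTSeq (counter), per the submitters' processing notes. Versions, annotation and strand setting are not given in the sources used here, so reads of overlapping genes cannot be told apart. The table holds 24062 symbols, of which 160 had no RefSeq match, and 5 summary categories (46.4 to 63.5% of each organoid library) that were left out. All columns were assigned to libraries, leaving 0 unused.

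Differences were tested with edgeR 4.0.16 (R 4.3.3): filterByExpr (minimum count 10, minimum total 15), TMM normalisation, and the quasi-likelihood F-test, two-sided, on 1 mean per group. All 8 organoid libraries (4 groups) shared 1 estimate of the spread, with 4 residual degrees of freedom. Genes were called at an adjusted p under 0.05 (Benjamini-Hochberg, whole table). CPM values are TMM-normalised. No label says that replicates are separate cultures, and p-values reflect only the spread of these libraries. Counting intervals and floors cover counting error only. The B6 libraries are numbered 1 and 2 and the C5 libraries 3 and 4, so numbers link only control with AZA libraries.

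Named genes were, on chromosome 5 and elsewhere, up to 10 rises and 10 falls among called genes with at least 5 CPM on the higher side, no overlap and no clone name, plus fixed markers and up to 4 members per list. Slc47a1, 1700023E05Rik and Gm6329 fall outside it and were named after their values were seen, as were genes named near the threshold and list members given for their level. Members and lists were chosen with earlier results of these data known. Alternatives were RLE factors, DESeq2 1.42.0, no filter, no Rn45s, only 4 libraries, TMM without chromosome 5, limma 3.58.1 with a replicate block, and each library left out. The scripts were tested on simulated data.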

Additional observations from a re-analysis of the deposited data

Results flagged for a closer look

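For 10 genes called in control organoids, the difference between C5 and B6 was of another size in organoids than in tissue, by a test of that difference itself (organoid change minus mean change of 3 tissues, log2, edgeR). That test uses again the control libraries by which these genes were called, which favours large values. Pkd2, the cilia channel without reads in C5 organoids, had the largest value, -4.54 (adjusted p = 7.63e-06). Steap2 gave -3.19 (adjusted p = 0.00105) and Arpc1b 1.86 (adjusted p = 0.00105). Ube2l6 gave -2.64 (adjusted p = 0.00182), Commd8 1.71 (adjusted p = 0.00249), Ide -1.12 (adjusted p = 0.00681) and Map4 1.62 (adjusted p = 0.00867). Rpl21 gave 2.68, Cacna2d1 1.94 and Sult1d1 -1.66, each with an adjusted p of 0.0158. Leaving out 1 control library ended the call for 5 of them: Cacna2d1 (1.75), Sult1d1 (-1.73), Commd8 (1.57) and Map4 (1.39) without B6 replicate 1, Rpl21 (2.18) without B6 replicate 2, and Rpl21 (2.36), Cacna2d1 (1.47) and Sult1d1 (-1.53) without C5 replicate 4. The Rn45s share of gene counts was 16.4 to 72.7% over the tissue libraries of the series and 0.760 to 1.61% in organoids, and its part in these differences was not tested.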

How the results depend on the processing

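RLE size factors gave the 28 calls of the control contrast again, as did leaving out Rn45s. TMM from genes outside chromosome 5 gave 29 calls with all 28 among them, and the 4 control libraries alone gave 28 with 25 shared. DESeq2 gave 47 calls (26 shared), with 32 on chromosome 5 and 15 elsewhere. Without a filter on low counts there were 116 (28 shared), with 44 on chromosome 5 and 72 elsewhere. In AZA organoids the count was 59 by DESeq2 and 110 without the filter. The AZA interaction had 34 calls without the filter, and the organoid and tissue interaction 352 by DESeq2 and 530 without the filter. Why the filter and the tool moved these counts was not tested.

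No gene of the 28 changed sign in the control contrast under any alternative run. Leaving out 1 library at a time moved the count of calls between 22 and 139, that of chromosome 5 between 14 and 38, and that of other chromosomes between 8 and 101. The AZA contrast gave 21 to 171, its interaction 0 to 26, and the organoid and tissue interaction 24 to 253. Each fit without a library takes the spread of the lone one from the other groups.

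A replicate block was possible only between control and AZA libraries of 1 number, whose deviations correlated at 0.01 in B6 and 0.05 in C5. The numbers were therefore not treated as pairing the samples. With the replicate block (limma-voom), 22 genes were called in the control contrast, 19 of them shared, and 5 lay outside chromosome 5. The 9 others had adjusted p of 0.369 (Bglap3), 0.132 (1700023E05Rik), 0.191 (Pkd2), 0.135 (Gm6329), 0.292 (Steap1), 0.540 (Ube2l6), 0.797 (Slc47a1), 0.107 (Olfm4) and 0.710 (Atp10d). The AZA interaction had 21 calls with the replicate block in edgeR.

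Over all alternatives, 30 values of list medians moved by more than the spread between replicates. Taken over the members tested with all libraries, a choice made after seeing the data, 27 of 36 list medians did not keep one sign when 1 control library was left out, and that of the Cxcl cluster ran from -0.89 to -0.05.

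Among genes not called, single libraries turned the sign of the control change for Chga (-0.49 to 0.25), Alpi (-0.14 to 0.61), Mki67 (-0.50 to 0.014), Dnmt1 (-0.32 to 0.23), Psmb8 (-0.32 to 1.70) and S100b (-2.99 to 0.39). The gap between organoids and tissue turned for Bglap3 (-0.73 to 0.11, and 1.43 by DESeq2), Ugt2b36 (-0.25 to 0.23), Lars2 (-0.063 to 0.94) and Gm6329 (-0.11 by DESeq2), none of them called.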
